A study of Mus musculus with 18 samples.

Results

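The Hox genes of the 4 mammalian clusters were followed in mIMCD-3 cells, a mouse line established from inner medullary collecting duct epithelium, after inhibition of retinoid signaling. Members were all transcript clusters whose annotated symbol is Hoxa, Hoxb, Hoxc or Hoxd with a paralog number and nothing more, which gave 37 of the 23410 transcript clusters that carry a gene symbol. They comprised 10 Hoxa, 9 Hoxb, 9 Hoxc and 9 Hoxd genes, each measured by 1 transcript cluster. A cluster annotated jointly to Hoxb8 and Hoxb7 was not counted as a member, and its group means lay between 9.33 and 9.92 on the log2 scale.

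Hox genes encode homeodomain transcription factors that assign position along the body axis. Within a cluster they lie in the order in which they are used along the axis, from the low-numbered anterior genes to the high-numbered posterior genes. Retinoic acid, bound to retinoic acid receptors (RARs), activates several anterior Hox genes in embryos and embryonal carcinoma cells through response elements beside them, while Polycomb proteins keep unused parts of the clusters silent. In the kidney the Hox11 paralogs act in the metanephric mesenchyme, and the Hoxb7 promoter is widely used to drive transgenes in the ureteric bud, from which the collecting duct forms.

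The 18 arrays (Affymetrix Mouse Gene ST) formed 2 experiments, each with 3 independent biological replicates per group and 24 h of treatment. In the AGN193109 experiment cells received vehicle (0.1% ethanol with 0.1% DMSO), 1 µM AGN193109, an antagonist of all RARs, or 1 µM AGN193109 with 0.2 µM all-trans retinoic acid (tRA). In the DEAB experiment they received the same vehicle, 25 µM DEAB, which inhibits the aldehyde dehydrogenases that synthesize tRA, or 25 µM DEAB with 0.01 µM tRA. No group received tRA alone, and a single cell line was used. The comparisons ask whether Hox transcripts depend on the tRA these cells make and on RARs, and whether exogenous tRA moves them when the inhibitor is present.

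Most markers of their label were above background in the cells, some of them narrowly. Of 13 collecting duct and epithelial markers, 12 were above background in both vehicle groups, and Avpr2 was not. Of all clusters with a symbol, 66.4% were above it in the AGN193109 vehicle group and 67.1% in the DEAB vehicle group. The epithelial genes Cdh1 (12.25 and 12.91) and Krt8 (13.57 and 13.99) stood high. The water channel genes Aqp2 (7.79 and 8.01) and Aqp3 (6.92 and 7.00) were nearer to background (6.67 and 6.76). Of 16 markers of other kidney and blood cells, 9 were above background in both, among them Cd68 of macrophages (9.05 and 8.90), Col1a1 of fibroblasts (8.21 and 8.29) and Foxd1 of stroma (7.96 and 8.00). The other 7 were not, among them Ptprc of leukocytes (5.94 and 6.04) and Pecam1 of endothelium (6.45 and 6.43). Summed over the list, the log2 levels of these 16 markers lay between 111.9 and 113.3 in the 6 groups. Array medians spanned 7.23 to 7.33 among AGN193109 experiment arrays and 7.48 to 7.51 among the rest, so levels of the 2 experiments are given side by side without a test.

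The clusters also hold microRNAs whose best known targets include Hox transcripts, and 2 families are shown because members of each lie in different Hox clusters and carry the same seed. Bases 2 to 8, the seed, are in capitals, and the sequences are mature microRNAs of RefSeq (GRCm38.p6), read 5′ to 3′.
miR-10a-5p (Hoxb cluster, chr11:96317186-96317208, plus strand): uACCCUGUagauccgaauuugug
miR-10b-5p (Hoxd cluster, chr2:74726074-74726096, plus strand): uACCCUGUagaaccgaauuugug
miR-196a-5p (Hoxb cluster, chr11:96265187-96265208, plus strand): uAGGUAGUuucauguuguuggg
miR-196b-5p (Hoxa cluster, chr6:52230129-52230150, minus strand): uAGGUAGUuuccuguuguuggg
The miR-10 pair differs by 1 base, U12A, and the miR-196 pair by 1 base, A12C, with positions counted from 1 at the 5′ end of the miRNA named earlier in each pair. The array measured the precursor loci and not the mature forms. Mir196a-1 had means of 7.32 and 7.10 in the vehicle groups of the AGN193109 and DEAB experiments and Mir196b of 7.52 and 7.08, all above background, while Mir10a (4.04 and 4.51) and Mir10b (3.85 and 3.87) were not. Of the 10 microRNA and noncoding RNA loci of the Hox clusters that the array held, none was called in any comparison by limma, with or without the replicate block.

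The promoters of 3 Hox genes are shown because Hoxa5 was called in a treatment comparison with the replicate block and the others, Hoxb4 and Hoxd4, are retinoid-responsive in the embryo. Each line gives the 250 bases before the transcription start in RefSeq (GRCm38.p6), and capitals mark core motifs of retinoid receptors (AGGTCA or AGTTCA or GGGTCA or GGTTCA, on either strand).
Hoxa5 (chr6:52204588-52204837, minus strand): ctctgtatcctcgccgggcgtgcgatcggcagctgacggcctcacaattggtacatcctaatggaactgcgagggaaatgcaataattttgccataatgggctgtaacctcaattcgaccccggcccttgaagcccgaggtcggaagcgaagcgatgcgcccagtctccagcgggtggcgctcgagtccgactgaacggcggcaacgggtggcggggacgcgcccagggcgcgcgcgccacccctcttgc
Hoxb4 (chr11:96318017-96318266, plus strand): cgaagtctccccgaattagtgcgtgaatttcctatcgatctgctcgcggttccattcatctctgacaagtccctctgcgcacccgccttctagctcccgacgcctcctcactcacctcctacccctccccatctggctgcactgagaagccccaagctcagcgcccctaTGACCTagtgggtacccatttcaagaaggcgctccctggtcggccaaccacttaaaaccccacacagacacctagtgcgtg
Hoxd4 (chr2:74721728-74721977, plus strand): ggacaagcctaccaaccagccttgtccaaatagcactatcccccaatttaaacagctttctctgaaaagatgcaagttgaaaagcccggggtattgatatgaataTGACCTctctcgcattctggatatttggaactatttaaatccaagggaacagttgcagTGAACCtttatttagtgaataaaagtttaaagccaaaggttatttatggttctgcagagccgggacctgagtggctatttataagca
No core motif lay in the printed window of Hoxa5, whose only match began 41 bases after the start, while Hoxb4 had 1 match beginning 81 bases before its start and Hoxd4 had 2, at 145 and 87 bases before. RefSeq promoters of 300 bases (250 before and 50 after the start) were at hand for 21 of the 37 genes, as 23 windows, and 11 of them (47.8%) held at least 1 core motif, against 43.7% of all 32851 promoters of that length. Direct repeats of these motifs with 1, 2 or 5 bases between them were found in 0 of the 23 windows and in 0.222%, 0.268% and 0.0974% of all promoters. The known response elements of Hox genes lie mostly outside such windows, and the count says only that these letters were not in them. The median GC content was 58% in the Hox windows and 52.7% in all, and the median number of CpG dinucleotides was 15 and 7.

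In vehicle-treated cells the Hoxa and Hoxb clusters were above background along their whole measured length, and most of the Hoxc cluster was not. Background was taken as the 95th percentile of 1035 olfactory receptor transcript clusters, genes with little expression in kidney epithelium, and was 6.67 with the AGN193109 experiment's vehicle arrays and 6.76 with the DEAB experiment's. Above it were 25 of 37 Hox genes (67.6%) in the former and 26 (70.3%) in the latter, against 66.4% and 67.1% of all clusters with a symbol. All 10 Hoxa and all 9 Hoxb genes passed in both, as did Hoxc9 and Hoxd4, Hoxd8, Hoxd9, Hoxd10 and Hoxd11. Hoxc4 passed in the DEAB experiment only, at 6.84, 6.88 and 6.95 in its 3 vehicle arrays. The other 7 Hoxc genes and Hoxd1, Hoxd3, Hoxd12 and Hoxd13 were not above background in either vehicle group. At the 99th percentile of the olfactory receptors (7.48 and 7.58) 18 and 19 Hox genes remained, and Hoxa11, Hoxa13, Hoxb1, Hoxc9, Hoxd10 and Hoxd11 were no longer among them, while Hoxd4 stayed in the DEAB experiment only. Transcript clusters differ in their probes, so a difference in level between genes is not a difference in RNA amount.

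Hoxb9, a paralog used in the thoracic region, had the highest reading of the Hoxb cluster. Its vehicle arrays read 12.41, 12.38 and 12.25 in the AGN193109 experiment and 12.41, 12.51 and 12.48 in the DEAB experiment, which put its mean at the 95.3rd and 94.1st percentile of all clusters with a symbol. Hoxa9, which maintains blood stem cells and is activated in leukemias, was the highest of the Hoxa cluster at 10.85, 10.83 and 10.79 and 10.95, 11.07 and 11.02. Both genes varied little, with standard deviations (SDs) of 0.08 and 0.05 for Hoxb9 and of 0.03 and 0.06 for Hoxa9 (n = 3 arrays). Around Hoxa9 the readings were lower towards either end of the cluster, with vehicle means of 7.95 and 8.12 for Hoxa2 and of 7.37 and 7.36 for Hoxa13. In the Hoxb cluster Hoxb2, a hindbrain gene, had means of 10.36 and 10.89, and Hoxb13, a gene of prostate and tail, of 8.68 and 8.69. Hoxb7, the gene of the ureteric bud transgenes, had means of 9.73 (SD 0.16) and 10.21 (SD 0.08).

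In the Hoxd cluster the readings above background were in its middle. Hoxd8 arrays read 8.49, 8.39 and 8.23 in the AGN193109 vehicle group and 8.86, 8.92 and 8.94 in the DEAB vehicle group. Hoxd9 followed with means of 8.04 and 8.20. Hoxd10 stood just above background, at 7.09 (background 6.67) and 6.81 (background 6.76), and Hoxd13, which patterns digits, lay beneath it at 6.19 and 6.52. Of the Hox11 paralogs of the embryonic kidney, Hoxa11 (7.45 and 7.46) and Hoxd11 (6.99 and 7.34) were above background and Hoxc11 (6.08 and 5.60) was not. Hoxc9, the highest of the Hoxc cluster, read 7.28, 7.27 and 7.75 and 7.34, 7.57 and 7.38, with replicate 3 of the AGN193109 experiment above the other vehicle arrays. RefSeq gene models of Hoxa3 overlap those of Hoxa4, Hoxa5 and Hoxa6, and the pairs Hoxb3 and Hoxb4, Hoxd3 and Hoxd4, and Hoxd10 and Hoxd11 overlap too, so the readings of such neighbors may share transcripts. In bulk RNA, fewer cells with a transcript and less transcript per cell cannot be told apart.

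**Figure D1:**
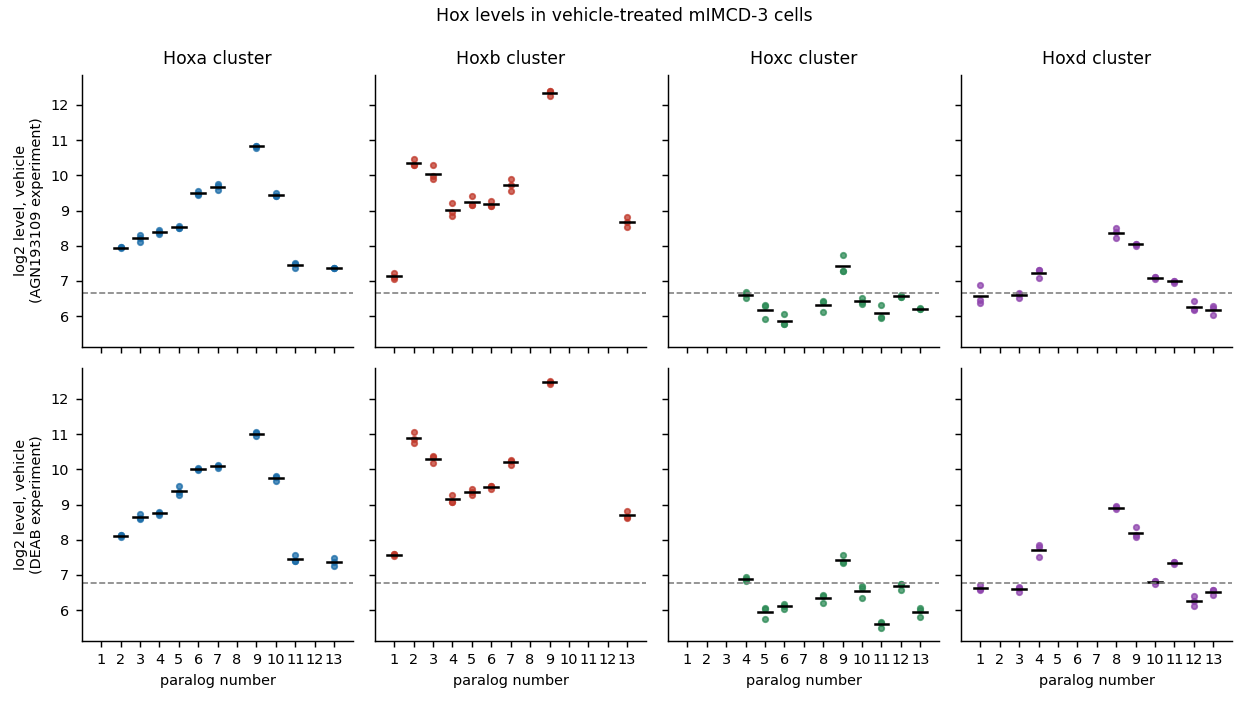
Log2 level of each Hox gene in the 3 vehicle arrays (points) and their mean (bar) against its paralog number, by cluster (columns) and experiment (rows); the dashed line is the 95th percentile of olfactory receptor clusters, 6.67 and 6.76. All Hoxa and Hoxb genes lie above the line, Hoxb9 is the highest at 12.35 and 12.47, and most Hoxc genes lie below it.

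Inhibition of RARs or of tRA synthesis left no Hox gene called. Between AGN193109 and vehicle 0 of 37 Hox genes were called by limma at an adjusted p under 0.05, where 0.0683% of all clusters were called (0.457% with replicate number as a block), and between DEAB and vehicle 0 of 37 were called, where 0.0342% of all clusters were (0.303% with the block). The block gave 0 Hox calls in both comparisons. An unadjusted p under 0.05 was reached by 1 Hox gene with AGN193109 (3.3% of all clusters) and by 1 with DEAB (4.05%). Log2 differences of the 37 genes ranged from -0.27 to 0.12 with AGN193109, with a median of 0.01, and from -0.17 to 0.13 with DEAB, with a median of 0.02; the medians of all clusters were 0.02 and 0.00. The 95% interval lay within 1.5-fold in either direction for 36 of 37 Hox genes with AGN193109, where it did for 93.3% of all clusters. Of the 25 Hox genes above background in both vehicle groups, it did for 24. With DEAB it did for 37 of 37 Hox genes. The exception with AGN193109, Hoxb3, reached 1.53-fold lower. Of the 37 genes, 15 had a positive difference with both inhibitors, 7 a negative one with both and 15 opposite signs. The effects of the inhibitors were also compared directly: 0 of 37 Hox genes had a called difference between the AGN193109 effect and the DEAB effect (limma interaction, 0% of all clusters, and 0.00427% with the block, which also gave 0 Hox calls), and 0 had an unadjusted p under 0.05 without the block (2.3% of all clusters) and 3 with it (Hoxb3, Hoxd10 and Hoxd13; 5.57%).

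Well known targets of retinoic acid outside the Hox clusters were read on the same arrays. Of 9 such genes, 3 were called lower with AGN193109 with the block (Dhrs3, Stra6 and Tgm2), 1 lower with DEAB (Tgm2) and 3 higher when tRA was added to DEAB (Dhrs3, Stra6 and Tgm2), also with the block, while 0 of 9 were called without it. Dhrs3, a retinaldehyde reductase, differed by -3.10 between AGN193109 and vehicle (limma with the block: standard error (SE) 0.36, adjusted p = 0.011, n = 3 arrays per group), where the lowest Hox difference was -0.27. In the DEAB experiment Dhrs3 had means of 10.12 with vehicle and 7.79 with DEAB, a difference not called with or without the block. The absence of a call therefore does not by itself show that a gene was unchanged.

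The anterior Hox genes with known retinoid response elements were examined one at a time. Hoxb1, which specifies a hindbrain segment and is a direct RAR target in the embryo, read 7.12, 7.05 and 7.23 with vehicle, 7.19, 7.38 and 7.18 with AGN193109 and 7.12, 7.18 and 7.31 with AGN193109 and tRA. In the DEAB experiment it read 7.59, 7.54 and 7.60 with vehicle, 7.67, 7.60 and 7.47 with DEAB and 7.86, 7.60 and 7.49 with DEAB and tRA. The groups overlapped in both experiments, and the differences from vehicle were 0.12 (95% interval -0.08 to 0.32) with AGN193109 and 0.01 (-0.20 to 0.22) with DEAB.

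Hoxa4, a cervical paralog, had the smallest SE of these genes in both experiments (0.07 and 0.04). It read 8.39, 8.33 and 8.44 with vehicle, 8.45, 8.39 and 8.29 with AGN193109 and 8.35, 8.28 and 8.41 with added tRA. With DEAB, whose vehicle arrays read 8.69, 8.76 and 8.80, it read 8.76, 8.79 and 8.80, and with tRA 8.75, 8.76 and 8.76. No inhibitor group stood apart from its vehicle, with differences of -0.01 (-0.17 to 0.16) and 0.03 (-0.06 to 0.13).

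Hoxb4, known for the self-renewal of blood stem cells, read 8.96, 9.21 and 8.85 with vehicle, 9.00, 8.96 and 8.93 with AGN193109 and 8.81, 8.99 and 8.78 with added tRA. In the DEAB experiment the values were 9.28, 9.08 and 9.08 with vehicle, 9.11, 9.08 and 8.93 with DEAB and 9.02, 9.04 and 9.08 with added tRA. The groups overlapped, and the differences from vehicle were -0.04 (-0.27 to 0.18) and -0.10 (-0.26 to 0.05). For Hoxd4, a further paralog of this group, they were -0.03 (-0.24 to 0.19) and 0.13 (-0.22 to 0.49). Hoxd4 was higher with DEAB in 3 of 3 replicates, and with the block its interval for DEAB was 0.01 to 0.25, with a limma adjusted p of 0.57. None of these 4 genes was called in any treatment comparison.

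Some further Hox genes came closest to a change with an inhibitor and were picked after their values were seen. Hoxd10, a lumbar paralog, read 7.06, 7.12 and 7.10 with vehicle, 6.89, 6.80 and 6.90 with AGN193109 and 6.78, 6.90 and 6.79 with AGN193109 and tRA. All 6 arrays with AGN193109 lay below the 3 vehicle arrays, with a difference of -0.23 for AGN193109 alone (95% interval -0.38 to -0.07; limma adjusted p = 1). In the DEAB experiment the gene read 6.84, 6.74 and 6.83 with vehicle and 7.00, 6.73 and 6.68 with DEAB, and these groups overlapped. The difference between the effects was -0.23 (-0.46 to 0.01, limma adjusted p = 1), and both experiments read the gene near background. Hoxb3 had the most negative difference with AGN193109, -0.27 (-0.62 to 0.08 without the block). It read 9.86, 9.50 and 10.00 against 9.98, 9.88 and 10.29 with vehicle, which overlap, and it was lower in each replicate. With the block, the limma F-test over the 3 groups gave Hoxb3 an unadjusted p of 0.017 and an adjusted p of 0.59. With DEAB its difference was 0.00 (-0.20 to 0.20). Hoxb7 was higher in all 3 DEAB arrays, at 10.35, 10.37 and 10.30, than in the vehicle arrays, at 10.24, 10.27 and 10.12, a difference of 0.13 (0.02 to 0.25; limma adjusted p = 1). Beside these, Hoxa9 with AGN193109 (lowest array and highest vehicle array both 10.85 when rounded) and Hoxb6 with DEAB did not overlap with vehicle, both higher, so that 2 of 37 Hox genes did not overlap in each of these comparisons, against 6.02% of all clusters with AGN193109 and 6.89% with DEAB. No Hox gene did so with both inhibitors. Of all 23410 clusters only 206 did so with the same sign, so 0 of 37 does not set the Hox genes apart.

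**Figure D2:**
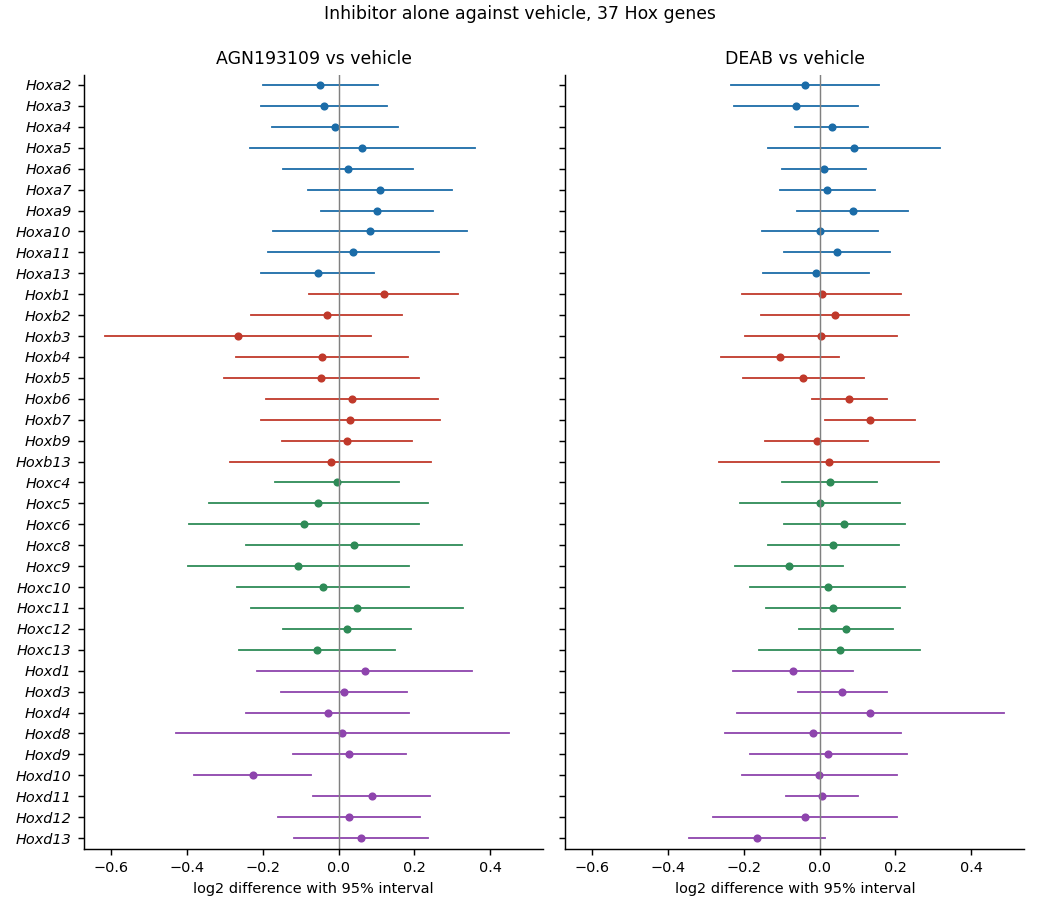
Log2 difference of each Hox gene between inhibitor and vehicle (point) with its 95% interval from limma (line), for AGN193109 (left) and DEAB (right), n = 3 arrays per group, colored by cluster. The points lie between -0.27 and 0.12 and between -0.17 and 0.13, and 0 of 37 are called in either panel.

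Exogenous tRA added to AGN193109 left no Hox gene called. Between AGN193109 with tRA and AGN193109, 0 of 37 Hox genes were called by limma (0.0214% of all clusters, 0.0812% with the block, which also gave 0 Hox calls) and 1 had an unadjusted p under 0.05 (2.14%). Of all 37 Hox genes 29 had a negative difference, with a median of -0.04, where 55.8% of all clusters were negative with a median of -0.01. Of the 25 Hox genes above background in both vehicle groups, a set filtered by level, 23 were negative, with a median of -0.08. This count was 20 with the arrays normalized again by quantiles or centered on their medians, when 47.3% and 46.1% of all clusters were negative, and between 18 and 22 with 1 array left out. The median was -0.16 without AGN193109 replicate 2 and between -0.084 and -0.055 without any other array, and it was -0.049 with quantiles and -0.057 with medians. By cluster, 9 of 10 Hoxa and 8 of 9 Hoxb genes were negative, and the medians were -0.11 for Hoxa, -0.10 for Hoxb, -0.02 for Hoxc and -0.02 for Hoxd. The inhibitor arrays serve in this comparison and in that with vehicle, so their readings enter both. The median SE of a Hox difference was 0.09, and neighboring genes on an array are not independent replicates.

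With tRA added to DEAB, 0 of 37 Hox genes were called without the block (0.325% of all clusters) and 1 with it, Hoxa5, where 1.5% of all clusters were called with the block. An unadjusted p under 0.05 was reached by 5 Hox genes without the block, against 6.39% of all clusters, and these were Hoxa5, Hoxa7, Hoxa9 and Hoxb7 with negative and Hoxd13 with positive differences. Of all 37 Hox genes 17 were negative, with a median of 0.008, against 46.6% of all clusters with a median of 0.006. Of the 25 genes above background, a set filtered by level as all clusters were not, 15 were negative, with a median of -0.05. This median moved with single arrays: it was -0.0083 without DEAB with tRA replicate 1, -0.083 without DEAB with tRA replicate 3, -0.078 without DEAB replicate 1 and -0.020 without DEAB replicate 2, and -0.024 with the arrays normalized again by quantiles. The Hoxa cluster had 8 of 10 negative genes with a median of -0.07, the Hoxb cluster 4 of 9 with a median of 0.01, the Hoxc cluster 2 of 9 with a median of 0.05 and the Hoxd cluster 3 of 9 with a median of 0.03. Of the 16 markers of other kidney and blood cells, 13 had a positive difference in this comparison, with a median of 0.10 and 0 called, and their part in the Hox values was not tested.

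Hoxa5, which is needed for lung and rib formation, was called in 1 treatment comparison when replicate number entered as a block. It read 9.26, 9.54 and 9.37 with vehicle, 9.39, 9.58 and 9.48 with DEAB and 8.98, 9.32 and 9.21 with DEAB and tRA. Every array with tRA was below all DEAB arrays, and in each replicate tRA gave the lower value. With the block Hoxa5 fell by 0.31 on the log2 scale (SE 0.045, limma adjusted p = 0.022, n = 3 arrays per group), a 1.24-fold decrease, and without it the adjusted p was 0.57 (SE 0.10). The call rested on the processing, since over 6 settings with the block and all arrays the adjusted p lay between 0.0054 and 0.087 (called in 5), and with the block and 1 array left out between 0.046 and 0.13 (called in 2 of 9). Against vehicle the difference was -0.22 (95% interval -0.45 to 0.01 without the block), not called. In the AGN193109 experiment Hoxa5 read 8.50, 8.57 and 8.50 with vehicle, 8.73, 8.24 and 8.78 with AGN193109 and 8.50, 8.50 and 8.35 with AGN193109 and tRA. There AGN193109 replicate 2 lay below the vehicle arrays and replicates 1 and 3 above them, and the difference with tRA was -0.14 (-0.43 to 0.16).

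Hoxa9 was the only 1 of 37 Hox genes whose arrays did not overlap when tRA was added in both experiments. Of all 23410 clusters, 246 did so with the same sign in both. With AGN193109 it read 10.98, 10.85 and 10.94, and with AGN193109 and tRA 10.75, 10.71 and 10.74. With DEAB it read 11.03, 11.14 and 11.12, and with DEAB and tRA 10.79, 10.97 and 10.99. All 6 arrays with tRA were below all arrays of their inhibitor. The differences were -0.19 (95% interval -0.34 to -0.04; limma adjusted p = 1) and -0.18 (-0.33 to -0.04; limma adjusted p = 0.67), and neither was called. With the block the adjusted p of the DEAB comparison was 0.11, and with the block and the trend and robust options of limma it was 0.020, so that Hoxa9 was called under that setting. Of all 37 Hox genes, 2 did not overlap when tRA was added to AGN193109 (4.15% of all clusters), Hoxa9 and Hoxb9, both lower. When it was added to DEAB 6 did not (9.21% of all clusters), of which Hoxa5, Hoxa6, Hoxa7, Hoxa9 and Hoxb7 were lower and Hoxd13 higher.

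The genes beside Hoxa9 were read in the same way, a stretch picked after the values were seen. Hoxa6, a thoracic paralog, read 9.99, 10.08 and 10.01 with DEAB and 9.85, 9.98 and 9.94 with DEAB and tRA, and Hoxa7 read 10.05, 10.18 and 10.11 and 9.89, 10.03 and 10.03. Both pairs of groups stood apart by a narrow margin, with differences of -0.11 (95% interval -0.22 to 0.00) and -0.13 (-0.253 to -0.0033). Hoxa10, whose loss alters the uterus, differed by -0.04 with DEAB and by -0.16 with AGN193109. Over Hoxa5, Hoxa6, Hoxa7, Hoxa9 and Hoxa10, 5 of 5 differences with added tRA were negative in each experiment, with medians of -0.15 and -0.13. Hoxb7 read 10.12, 10.19 and 10.18 with DEAB and tRA, below its DEAB arrays in every replicate, a difference of -0.18 (-0.30 to -0.06; limma adjusted p = 0.43). In the AGN193109 experiment it read 9.87, 9.62 and 9.79 without and 9.66, 9.46 and 9.47 with tRA, which overlap. Hoxd13, the gene with a higher reading, had values of 6.36, 6.29 and 6.42 with DEAB and 6.47, 6.47 and 6.72 with DEAB and tRA, all below the vehicle background of 6.76.

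The highest genes of the other clusters were not called. Hoxb9 read 12.46, 12.32 and 12.33 with AGN193109 and 12.26, 12.27 and 12.16 with AGN193109 and tRA, where the groups did not overlap, and 12.41, 12.52 and 12.46 with DEAB and 12.28, 12.45 and 12.45 with DEAB and tRA, where they overlapped. Its differences were -0.14 (-0.31 to 0.03) and -0.07 (-0.20 to 0.07). Hoxd8 read 8.65, 8.09 and 8.40 with AGN193109 and 8.80, 8.07 and 8.22 with AGN193109 and tRA, and the spread within each group was wider than the difference of -0.02 (-0.46 to 0.42). In the DEAB experiment it read 8.66, 9.02 and 8.99 and 8.60, 8.86 and 8.82, a difference of -0.13 (-0.36 to 0.10). Hoxc9 read 7.26, 7.28 and 7.45 and 7.21, 7.31 and 7.42 in the AGN193109 experiment, and 7.38, 7.36 and 7.32 and 7.37, 7.43 and 7.41 in the DEAB experiment, with overlapping groups and differences of -0.02 and 0.05.

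**Figure D3:**
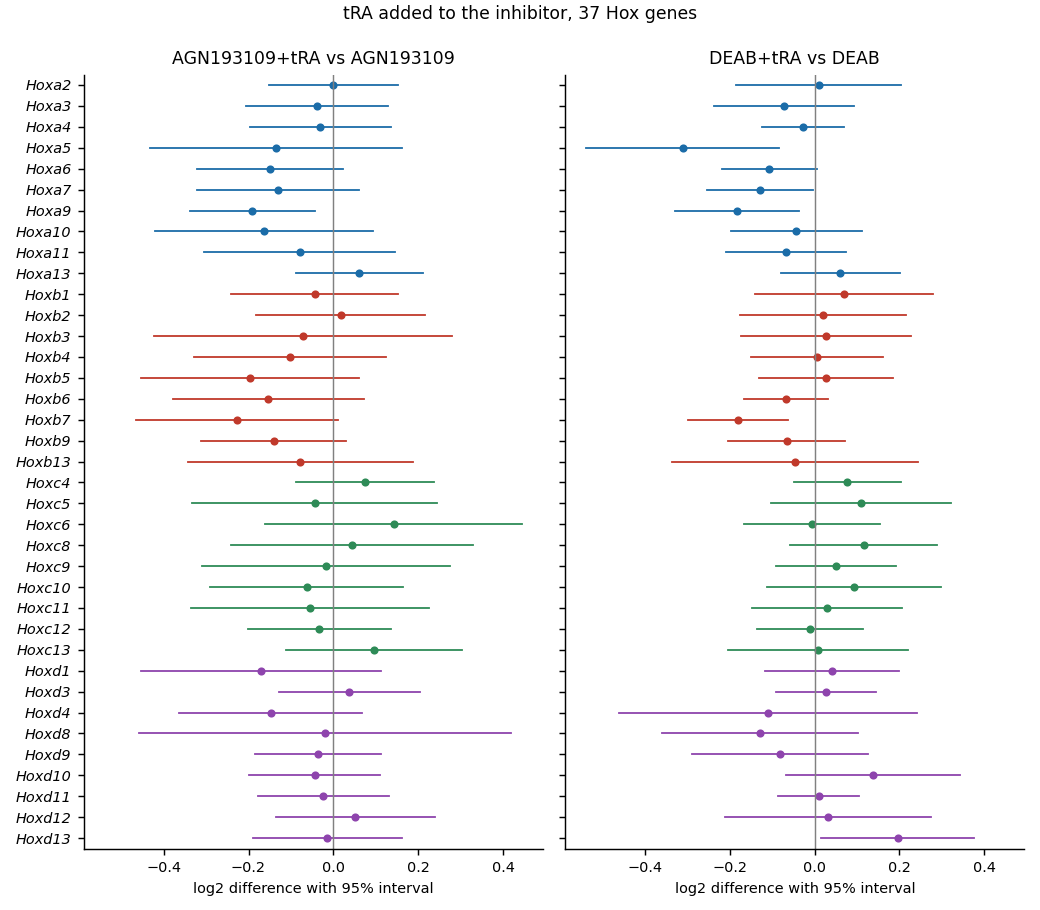
Log2 difference of each Hox gene between inhibitor with tRA and inhibitor alone (point) with its 95% interval from limma without the block (line), for AGN193109 (left) and DEAB (right), n = 3 arrays per group, colored by cluster. Hoxa5 to Hoxa10 lie to the left of 0 in both panels, with -0.19 and -0.18 for Hoxa9, and Hoxa5 with DEAB is the lowest at -0.31.

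Inhibitor with tRA was also set against vehicle. With AGN193109 and tRA 0 of 37 Hox genes were called by limma without the block (0% of all clusters) and 0 with it (0.00427%), and 1 gene, Hoxd10, had an unadjusted p under 0.05 (1.79%), with a difference of -0.27 (95% interval -0.43 to -0.12; limma adjusted p = 1). With DEAB and tRA 0 were called without the block (0%) and 0 with it (0.0214%), and 0 had an unadjusted p under 0.05 without the block (5.99%) and 3 with it (11.1%). Differences lay between -0.34 (Hoxb3) and 0.09 in the AGN193109 experiment and between -0.22 (Hoxa5) and 0.15 in the DEAB experiment. Of the 37 genes, 3 did not overlap with vehicle in the former (3.87% of all clusters), with Hoxa9 and Hoxd10 lower and Hoxd11 higher, and 2 in the latter (8.07%), Hoxa6 and Hoxa7, both lower. A moderated F-test over the 3 groups of each experiment called 0 of 37 Hox genes in both, without the block (0.047% and 0.154% of all clusters) and with it (0.282% and 0.897%).

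At an adjusted p under 0.05 and the default options of limma, Hox genes were not called between replicates more often than clusters at large. In the DEAB experiment this did not hold for unadjusted p. An F-test of replicate number in limma, with group in the model, called 2 of 37 Hox genes in the DEAB experiment, Hoxd4 and Hoxa5, where 7.14% of all clusters were called, and 0 in the AGN193109 experiment, where 3.32% were. An unadjusted p under 0.05 was reached by 14 of 37 Hox genes in the former, a larger share than the 22.5% of all clusters. In the latter it was reached by 5 of 37, a smaller share than the 20.7% of all clusters. With the trend and robust options 7 Hox genes were called in the DEAB experiment. Hoxd4 read 7.50, 7.84 and 7.81 with vehicle, 7.53, 7.99 and 8.03 with DEAB and 7.53, 7.88 and 7.81 with DEAB and tRA. Replicate 1 was below the other replicates in each group, and the replicate means were 7.52, 7.91 and 7.88 (limma adjusted p = 0.0094, n = 3 arrays per replicate number). In the AGN193109 experiment the gene read 7.32, 7.30 and 7.09 with vehicle, 7.19, 7.09 and 7.34 with AGN193109 and 6.98, 7.16 and 7.05 with AGN193109 and tRA, where no replicate stood apart and the replicate means were 7.16, 7.18 and 7.16. For Hoxa5 the replicate means of the DEAB experiment were 9.21, 9.48 and 9.36 (limma adjusted p = 0.032). The call of Hoxa5 ended when any 1 array was left out, with adjusted p between 0.055 and 0.12, and that of Hoxd4 ended only without DEAB replicate 1, with an adjusted p of 0.054. Replicate numbers name independent biological experiments, and what else differed between them is not given in the labels.

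**Figure D4:**
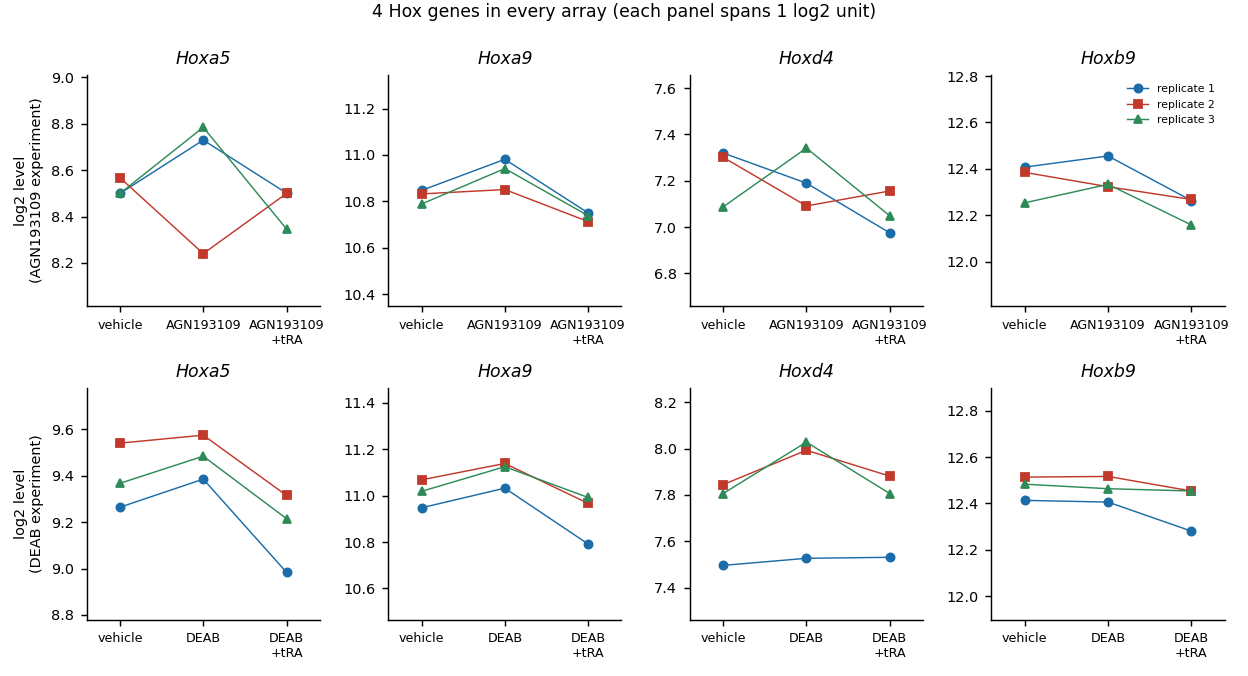
Log2 level of Hoxa5, Hoxa9, Hoxd4 and Hoxb9 in each array by treatment group, for the AGN193109 experiment (top) and the DEAB experiment (bottom); lines join arrays of the same replicate number and every panel spans 1 log2 unit. In the DEAB experiment Hoxd4 replicate 1 (7.50 to 7.53) lies below the other replicates, and Hoxa5 and Hoxa9 are lower with tRA than with DEAB in all 3 replicates.

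The partners and regulators of Hox genes were compared in the same fits. Of 8 TALE homeodomain cofactors on the array, 7 were above background in both vehicle groups, with Pbx3 at 11.86 and 12.17, Meis2 at 10.40 and 10.21 and Meis1 at 7.99 and 8.55, and 0 of 8 were called in any of the 6 comparisons with or without the block. Of 10 upstream regulators, among them Cdx genes and the retinoid receptors, 0 were called. Rarg, an RAR, had readings of 10.42 and 10.31 in the vehicle groups, of 10.11 with AGN193109 and of 10.33 with DEAB, and Rarb and Cdx2 were not above background. All 21 Polycomb and Trithorax regulators on the array, which repress and maintain Hox transcription, were above background, with Ezh2 at 12.80 and 12.98, and 0 of 21 were called. Of 10 genes that lie beside the Hox clusters, 8 were above background, among them Mtx2 next to the Hoxd cluster and Hibadh and Skap2 on either side of the Hoxa cluster, and 0 were called. Of 17 genes of kidney development that act with Hox11 or in the ureteric bud, Eya1, a transcriptional partner of the Hox11 proteins, was the only call, and it fell by 0.41 when tRA was added to DEAB (SE 0.06, limma adjusted p = 0.028 without the block and 0.023 with it).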

How the data were processed

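RNA of mIMCD-3 cells was hybridized to 18 arrays, 9 per experiment and 3 per group. The authors normalized them with the Robust Multichip Average in Affymetrix Expression Console (version: not given in the sources used here) and deposited log2 values, which were used as they are. The lowest Pearson correlation between arrays was 0.985 (AGN193109 experiment) and 0.993 (DEAB experiment), and no arrays were identical. Arrays were assigned to groups by their titles, and the way a vehicle array's short name is written placed it in its experiment. The compound appears as AGN193110 or AGN193099 in some label fields, while the titles have AGN193109.

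Of 35556 transcript clusters, 23410 carry a symbol and were tested. Comparisons used group means per experiment in limma 3.58.1 (R 4.3.3), with Benjamini-Hochberg adjustment over all 23410, called at an adjusted p under 0.05. The difference between the inhibitor effects was an interaction over 18 arrays. Replicate number entered as a block in an alternative, since same-numbered arrays had residual correlations of 0.198 to 0.645 and 0.179 to 0.614, and above 0.1 in all 9 pairs of each experiment, where other pairs had -0.575 to 0.205 and -0.511 to 0.312. Residuals from group means cancel out within a group, which lowers the values of other pairs, so these are not an independent reference. Other alternatives were quantile normalization again, subtraction of array medians, removal of dim clusters (under the 30th percentile), inclusion of clusters with no symbol, the robust and trend options of limma, fits on the compared arrays alone or on all 18, each array left out, and other limits for background. The fit was tested on simulated data. A permutation of 3 arrays against 3 cannot go below 0.1, so the p-values are those of the linear model, and the number of arrays limits the precision.

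Described in full by rule were members called in any fit, those not overlapping with vehicle under both inhibitors, the retinoid-responsive genes with known elements and the highest gene of each cluster; others are said to be picked after their values were seen. The members and lists were chosen with earlier results of these data known. All 37 members matched RefSeq by gene ID with an equal symbol. No gene coordinates of the array annotation were used, as its genome build was not stated. Plots came from matplotlib 3.10.9 (Python 3.11.15).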

Additional observations from a re-analysis of the deposited data

How the results depend on the processing

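The counts of called Hox genes were 0 under every alternative run for the comparisons of each inhibitor with vehicle, of AGN193109 with tRA, of DEAB with tRA against vehicle, for the interaction and for the F-tests over 3 groups. The comparison of DEAB with tRA against DEAB was the exception. It gave 0 calls without the block and 1, Hoxa5, with replicate number as a block, and 1 with the block and quantile normalization, array medians subtracted or dim clusters left out. With the block and the trend and robust options it gave 2, Hoxa5 and Hoxa9 (log2 -0.18), and with the block over all clusters 0. With the block and each array left out it gave 0 to 1, called in 2 of 9 cases, without vehicle replicate 1 or 3. The log2 difference of Hoxa5 lay between -0.38 and -0.22 over all settings. The settings that join the block to another choice were added after the data were seen. Among the treatment comparisons, the block changed no Hox call other than those of Hoxa5 and, under the trend and robust options, Hoxa9.

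The F-test of replicate number in the DEAB experiment called 2 Hox genes and 1 with quantile normalization or all clusters, 3 with array medians subtracted or dim clusters left out, 7 with the trend and robust options, and 0 to 2 with each array left out. The number of Hox genes above background ranged from 18 to 31 in the AGN193109 experiment and from 19 to 31 in the DEAB experiment, with the 90th percentile of olfactory receptors as the highest count and the 99th as the lowest. The cause of these shifts was not tested.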
